A study of Mus musculus with 8 samples.

Results

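The collagen genes of the mouse colon were followed in 4 tumors and 4 normal colon samples. Members were all probes whose gene name on the array opens with Col, a number, a and a number. This rule took 85 of the 41174 probes. Among them, 4 probes belong to Col4a3bp, now named Cert1, which encodes a lipid transfer protein and no collagen, and they were set aside (its brightest probe differed by -0.29 on the log2 scale, limma adjusted p = 0.205). The remaining 81 probes name 40 collagen genes, of which 11 are fibrillar, 8 belong to basement membranes and 21 are of other kinds. Signal passed the filter on dim probes for 60 probes of 38 genes, and only Col10a1 and Col28a1 could not be tested.

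Collagens are secreted or membrane-bound trimers of alpha chains, and each chain has its own gene. Fibrillar collagens (types I, II, III, V, XI, XXIV and XXVII) form the tensile fibres of connective tissue and are made mainly by fibroblasts and smooth muscle in the gut wall. Type IV collagen forms the sheet-like network of basement membranes under the epithelium and around vessels, and types XV and XVIII sit in or beside that sheet. The others include the beaded type VI filaments, collagens that decorate fibrils, short-chain networks, the anchoring fibrils of type VII and transmembrane collagens.

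Per the labels, all mice were C57BL/6 and all carried 1 mutant Apc allele, written ApcHet in the genotype and ApcMin in the protocol, so the controls carry it too. The tumors are labelled Colon Adenoma with the genotype Tcf4Het ApcHet, and the normal samples Normal Colon with the genotype TCF4WT ApcHet. Tumor tissue and loss of 1 Tcf4 allele therefore cannot be told apart in any comparison below. RNA came from the last 2.5 cm of the colon of littermates, from 4 mice of each genotype, and age is not given. Each sample is total RNA on its own one-colour array (Cy3), so in bulk tissue fewer cells of a type and less RNA per cell cannot be told apart.

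Before the results, 2 features of the samples have to be known. Of the 8 columns of the deposited value table, 4 matched a scanner file exactly in rank (Spearman 1.0), but only tumor 1 matched the file of its own sample. The columns labelled normal 1 and normal 2 matched files of other normal samples, and the column labelled tumor 2 matched the file of a normal sample, normal 4. Values are given by the label of the table's column throughout, and which labels are right is not settled by the files. The sample labelled normal 3 also stood apart from the other normal samples: its smooth muscle markers averaged 13.41 against 14.41 to 15.69 in the other 3, and its 621 olfactory receptor genes (symbols opening with Olfr, a family known from the nose) averaged 8.22 against 5.70 to 7.11. Markers of colon were present in all 8 samples (means 14.55 to 16.85), as were markers of epithelium (16.56 to 17.22). Of 7 colon markers tested, 4 were lower in tumor, against 7.54% of all genes. With the replicate number as a block 2 were lower, against 5.17% of all genes.

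With limma at an adjusted p under 0.05, 3 of 38 collagen genes were higher in tumor (7.89%), against 7.0% of all 21633 genes tested, and 0 were lower, against 7.54% of all genes. The share called higher was thus near that of all genes, and the share called lower was below it. The 3 were Col18a1, Col9a3 and Col23a1, and they were also the only collagens whose 4 tumor values all lay above their 4 normal values. Over all genes, 11.9% were separated in this way with tumor higher and 11.9% with tumor lower. No collagen had all its tumor values below its normal values. When the scanner files were instead taken by the sample they are filed under, limma called 0 of 27591 genes and no collagen (436 genes had an unadjusted p under 0.05). The difference of Col18a1 was then 0.065 and that of Col9a3 1.54, and the differences of Col1a1, Col1a2, Col3a1, Col4a1, Col4a2, Col6a3 and Col8a1 turned below 0.

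Col18a1 encodes the alpha chain of type XVIII collagen, a basement membrane proteoglycan whose C-terminal fragment is endostatin. Its log2 levels in tumors 1 to 4 were 13.90, 14.29, 13.99 and 14.47, and in normal samples 1 to 4 they were 11.88, 12.65, 11.99 and 11.93. The lowest tumor thus lay above the highest normal sample, and normal 3 lay beside normals 1 and 4. The level was 2.05 ± 0.22 (SE) higher in tumor on the log2 scale, or 4.15-fold (limma adjusted p = 0.0121, n = 4 and 4). The probe lies at chr10:76496791-76496850 (mm8), and a separate Col18a1 probe gave 2.02. Within pairs of equal replicate number the differences were 2.03, 1.64, 2.0 and 2.54 for pairs 1 to 4. The call held with the replicate number as a block (adjusted p = 0.0361), and of the 8 samples left out in turn only tumor 3 ended it (adjusted p = 0.0553).

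Col9a3 encodes 1 of the 3 chains of type IX collagen, which decorates cartilage fibrils. Its levels were 9.17, 9.43, 9.08 and 9.41 in tumors 1 to 4, and 6.40, 5.81, 7.78 and 5.69 in normal samples 1 to 4. All tumors lay in a narrow band above the normal samples, and normal 3 was the normal sample nearest to them. The difference was 2.85 ± 0.44 (SE) on the log2 scale (limma adjusted p = 0.0164). The probe was not well above background on the arrays traced to normals 1 and 2 and was well above it on those traced to tumors 1 and 2. The normal level, and with it the size of this log2 difference, is therefore only a bound, and no fold is given. Its coordinates are chr2:180545256-180545838 (mm8). The call held with the replicate block (adjusted p = 0.042) but not without tumor 2 (0.0535), tumor 3 (0.0595) or normal 4 (0.053).

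Col23a1 encodes a transmembrane collagen. Its levels were 9.10, 9.63, 9.13 and 8.84 in tumors 1 to 4 against 8.38, 8.65, 8.34 and 8.41 in normal samples 1 to 4. The gap between the lowest tumor and the highest normal sample was narrow, and normal 3 did not stand apart by this probe. The level was 0.73 ± 0.19 (SE) higher in tumor, or 1.66-fold (limma adjusted p = 0.0423), and its other kept probe gave 0.98. By that dimmer probe normal 3 was the highest normal sample (7.93, against 7.26 to 7.35). The brighter probe lies at chr11:51426806-51426865 (mm8). With the replicate block the adjusted p was 0.0519, which ends the call. So did leaving out tumor 1, 2 or 3 or normal 1, 2 or 4 (adjusted p from 0.0762 to 0.108), no filter on dim probes (0.0569) and limma-trend (0.0738).

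The number of collagens called higher depended on single libraries, as did that of all genes, of which 3147 of 21633 were called in either direction with all 8 samples. It was 0 collagens without tumor 3 (21 genes of 21633 called), 1 without tumor 2 (378 genes), 1 without normal 4 (159 genes) and 15 without normal 3 (11136 genes), when 3 collagens were lower. In that last fit 31.7% of all genes were higher and 19.8% lower, so the share of collagens called rose with that of all genes. With the replicate number as a block, 2 collagens were higher (Col18a1 and Col9a3) and 0 lower, against 3.67% and 5.17% of all genes.

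**Figure D1:**
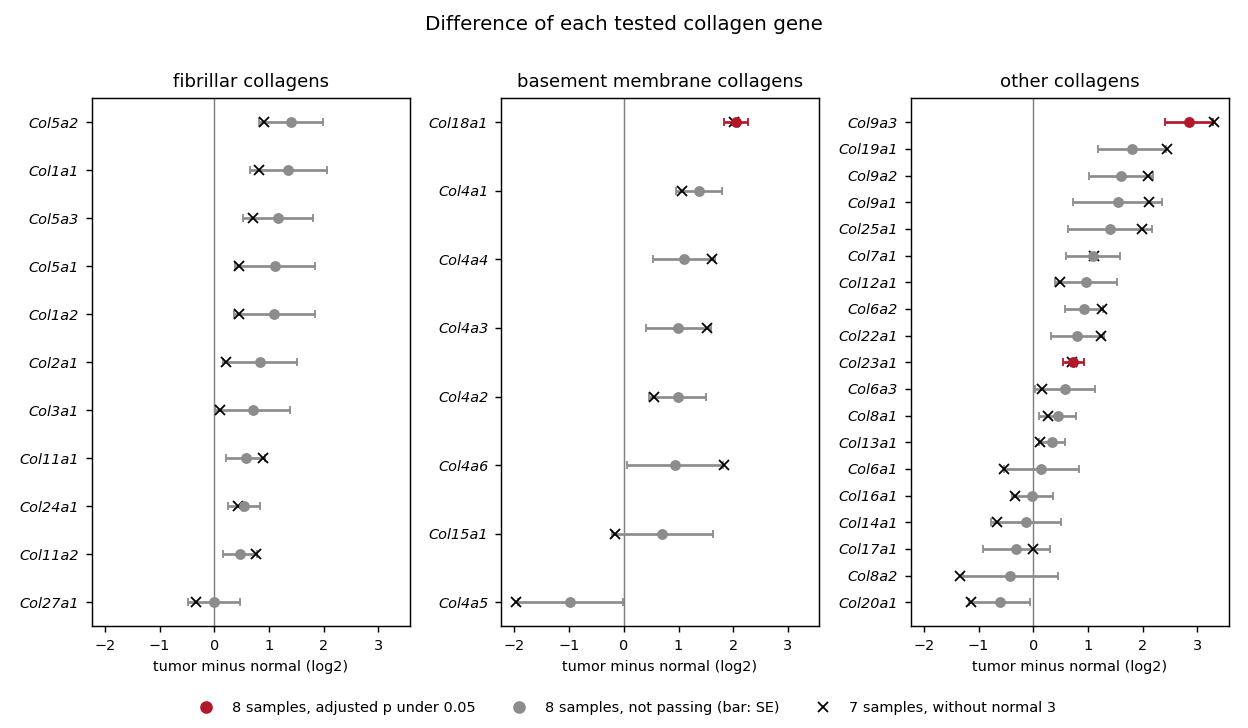
Difference between tumor and normal (log2, mean of 4 tumors minus mean of 4 normal samples, bars are 1 SE) for each of the 38 collagen genes tested, by class. Red points (Col18a1, Col9a3 and Col23a1) passed an adjusted p under 0.05, grey points did not, and crosses give the difference without normal 3, nearer to 0 in most fibrillar genes.

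Promoter sequence is shown for the collagens on which the results turn and which have an entry in the RefSeq table (GRCm38.p6): the called Col18a1, with both of its starts, the called Col23a1, and Col1a2 and Col3a1 as fibrillar genes that were not called. Each line gives the 150 bases before a transcription start, 5′ to 3′ on the gene's strand. Capitals mark a GC box (GGGCGG, read on either strand) or a CCAAT box (CCAAT, likewise).
Col18a1, start 1 (chr10:77113706-77113855, minus strand): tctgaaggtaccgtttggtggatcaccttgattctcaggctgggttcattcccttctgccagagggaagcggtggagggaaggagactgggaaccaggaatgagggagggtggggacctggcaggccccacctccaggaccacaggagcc
Col18a1, start 2 (chr10:77166531-77166680, minus strand): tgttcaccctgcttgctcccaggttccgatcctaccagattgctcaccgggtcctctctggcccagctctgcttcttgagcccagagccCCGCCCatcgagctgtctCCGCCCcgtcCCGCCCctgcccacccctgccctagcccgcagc
Col23a1 (chr11:51289770-51289919, plus strand): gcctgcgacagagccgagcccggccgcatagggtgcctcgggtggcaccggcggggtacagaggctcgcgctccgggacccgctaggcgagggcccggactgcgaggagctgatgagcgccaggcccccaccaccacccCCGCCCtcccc
Col1a2 (chr6:4505468-4505617, plus strand): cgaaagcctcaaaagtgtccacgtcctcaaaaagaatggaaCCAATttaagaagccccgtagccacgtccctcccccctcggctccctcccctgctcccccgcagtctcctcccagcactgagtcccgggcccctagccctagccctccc
Col3a1 (chr1:45311388-45311537, plus strand): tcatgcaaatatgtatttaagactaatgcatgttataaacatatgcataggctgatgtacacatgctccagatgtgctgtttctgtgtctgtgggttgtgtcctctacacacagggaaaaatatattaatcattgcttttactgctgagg

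The second Col18a1 start has 3 GC boxes, whose first bases lie at -61, -43 and -33 from the start, and the first has none, so the 2 starts of the called gene differ in this respect. Col23a1 has 1 GC box at -11. The Col1a2 window holds a CCAAT box at -109, and the Col3a1 window, with 37.3% G and C, holds neither motif. Of the 40 collagen genes, 32 matched the table, with 35 windows. A GC box was in 16 of the 35 (45.7%), against 28.6% of 32851 windows of all genes, and a CCAAT box in 8 (22.9%), against 24.5%. CTTTGAT, a core that TCF/LEF factors bind, was in 0 of the 35 (1.80% of all windows), and its other form CTTTGAA in 1, that of Col15a1 (2.40%). The AP-1 motif TGANTCA was in 1, that of Col6a1 (4.24%). These are matches of letters on both strands in a short window, not measured binding.

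Among basement membrane collagens the median difference was 0.99 on the log2 scale, against 0.88 over all 38 collagens and 0.15 over all genes, and 7 of 8 differences were above 0. Only Col18a1 was called. Col4a1 and Col4a2 encode the paired chains of the ubiquitous type IV network. Col4a1 levels were 12.64, 13.01, 12.99 and 13.47 in tumors and 11.21, 12.72, 10.74 and 11.95 in normal samples, in replicate order. Only normal 2 reached the tumor range. Its difference was 1.37 ± 0.42 (SE), or 2.58-fold, and missed the threshold (limma adjusted p = 0.0697, and 0.0469 without normal 3 and 0.0495 without normal 2, which do pass, as does 0.0431 under limma-trend).

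Col4a2 levels were 12.12, 12.37, 12.25 and 13.02 in tumors and 11.08, 12.64, 10.16 and 11.95 in normal samples. Normal 2 again lay inside the tumor range, and normal 3 was again the lowest. The difference was 0.98 ± 0.52 (SE; limma adjusted p = 0.204), and 0.55 without normal 3. Col4a4, a chain of the network known from kidney and inner ear, had the levels 12.06, 11.42, 12.31 and 11.59 in tumors and 11.10, 9.77, 12.28 and 9.85 in normal samples. Here normal 3 was the highest normal sample and lay among the tumors. The difference was 1.09 ± 0.57 (SE; limma adjusted p = 0.201), and 1.60 without normal 3 (adjusted p = 0.0175).

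The remaining basement membrane genes followed one or the other of these patterns. Col4a3 and Col4a6 had their highest normal value in normal 3, with differences of 1.0 and 0.94. Col15a1 and Col4a5 had their lowest value there, with differences of 0.70 and -0.98. None of these 4 was called (adjusted p from 0.236 to 0.568). Col4a5 was the only gene of the class with a difference below 0. Without normal 3, Col4a5 was lower in tumor by a difference of -1.98 (adjusted p = 0.0129). Col4a3 (1.51) and Col4a6 (1.83) were then higher (adjusted p = 0.0254 and 0.0180), and Col15a1 came to -0.17. The Col4a3 levels in normals 2 and 4 (4.11 and 4.16) lay below the limit of the filter on dim probes. The size of the Col4a3 difference, with or without normal 3, is therefore only a bound.

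No fibrillar collagen was called, and 10 of 11 differences lay above 0 (median 0.83, and 0.46 without normal 3). Their spread among the normal samples was wide. Col1a1 and Col1a2 encode the chains of type I collagen, the main fibre of connective tissue. Col1a1 levels were 14.94, 15.02, 14.98 and 16.57 in tumors and 13.52, 15.62, 12.44 and 14.52 in normal samples. Normal 2 exceeded 3 of the tumors, tumor 4 exceeded all samples, and normal 3 was lowest. The difference was 1.35 ± 0.71 (SE; limma adjusted p = 0.203), and 0.82 without normal 3.

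Col1a2 levels were 14.84, 15.13, 15.19 and 16.35 in tumors and 13.87, 15.88, 12.37 and 15.00 in normal samples. The groups overlapped in the same way, with tumor 4 and normal 2 high and normal 3 low. The difference was 1.1 ± 0.74 (SE; limma adjusted p = 0.283), and 0.46 without normal 3. Col3a1, which encodes type III collagen of elastic tissues and vessel walls, had the levels 15.08, 15.11, 15.22 and 16.33 in tumors and 14.44, 16.28, 12.93 and 15.29 in normal samples. Only normals 1 and 3 lay below the tumors. Its difference was 0.70 ± 0.69 (SE; limma adjusted p = 0.448), and 0.10 without normal 3.

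The other fibrillar genes include those of type V collagen, which sets fibril diameter, and of types II and XI, known from cartilage. Col5a1, Col5a2 and Col5a3 differed by 1.11, 1.40 and 1.17, Col2a1 by 0.83, Col24a1 by 0.55 and Col27a1 by -0.01. Adjusted p over these 6 genes ran from 0.149 to 0.994. With the mean of the kept probes, Col5a1 and Col5a3 were called higher (adjusted p = 0.0218 and 0.0159). Without normal 3 the differences were 0.46, 0.91 and 0.71 for type V, 0.22 for Col2a1, 0.43 for Col24a1 and -0.33 for Col27a1. In each of the 6, normal 3 was the lowest normal sample. Col11a1 and Col11a2, with differences of 0.57 and 0.47, went the other way and had their highest normal value in normal 3. They were the only fibrillar genes called higher without it (adjusted p = 0.0216 and 0.0193).

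**Figure D2:**
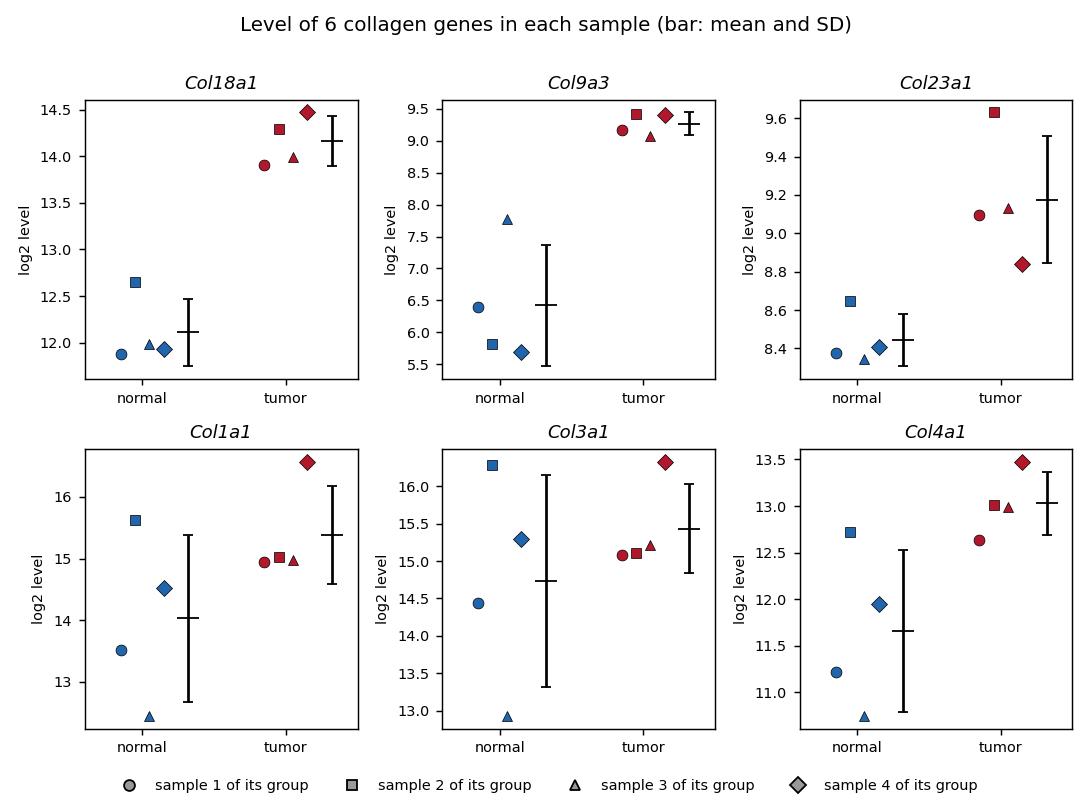
Log2 levels of Col18a1, Col9a3, Col23a1, Col1a1, Col3a1 and Col4a1 in each of the 4 normal samples and 4 tumors (a symbol for each replicate number), with the group mean and SD beside them. The first 3 have separate groups, while in the last 3 normal 3 is the lowest sample and tumor 4 the highest.

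Of the 19 other collagens tested, 14 had a difference above 0 (median 0.73), and 2 were called, Col9a3 and Col23a1. Col6a3 encodes the largest chain of type VI collagen, which forms beaded filaments around cells. Its levels were 12.86, 13.17, 12.66 and 14.20 in tumors and 12.33, 13.72, 11.38 and 13.13 in normal samples, so the groups overlapped. The difference was 0.58 ± 0.55 (SE; limma adjusted p = 0.430). Its partner chains differed by 0.15 (Col6a1) and 0.93 (Col6a2). Without normal 3 the differences were 0.16 for Col6a3, -0.53 for Col6a1 and 1.25 for Col6a2, of which Col6a2 was called (adjusted p = 0.0086). In this Col6a2 probe normal 3 was the highest normal sample (10.81). A dimmer kept Col6a2 probe gave -0.01 with all samples, and there normal 3 was the lowest normal sample (8.01, against 9.21 to 10.25). With the mean of its kept probes, Col6a3 was called (0.87, adjusted p = 0.0463).

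Col16a1 encodes a fibril-associated collagen. Its levels were 13.76, 13.51, 13.09 and 13.82 in tumors and 13.38, 14.31, 12.62 and 13.94 in normal samples. The groups overlapped fully, with a difference of -0.02 ± 0.37 (SE; limma adjusted p = 0.972), and leaving out 1 sample moved it between -0.33 and 0.23. Col8a1, a chain of the short-chain network of vessel walls, had 11.60, 11.59, 11.72 and 12.24 in tumors and 11.65, 12.14, 10.83 and 10.76 in normal samples. Normals 1 and 2 lay inside the tumor range, and the difference was 0.44 ± 0.34 (SE; limma adjusted p = 0.336), or 0.27 without normal 3.

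The 3 chains of type IX collagen can be set side by side. Beside the called Col9a3, Col9a2 differed by 1.60 ± 0.58 (SE; limma adjusted p = 0.104) and Col9a1 by 1.54 ± 0.81 (SE; adjusted p = 0.204). In all 3, normal 3 was the highest normal sample, and without it all 3 were called higher (adjusted p = 0.0445 for Col9a1 and 0.0115 for Col9a2). Olfactory receptor genes also had normal 3 highest and normals 2 and 4 lowest among normal samples (means 7.11, 5.70, 8.22 and 5.85 in normals 1 to 4, and 7.5 to 8.1 in tumors). Their median difference was 1.11, with 0 of 621 higher and 3 lower, and the part of this shift in the collagen differences was not tested. Col9a1, like Col4a3 and Col19a1, was not well above background on the arrays traced to normals 1 and 2. The Col9a1 levels in normals 2 and 4 (3.20 and 5.05) lay below the limit of the filter on dim probes. The size of the Col9a1 difference is therefore only a bound.

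Anchoring fibril Col7a1, which ties basement membrane to stroma, differed by 1.09 (limma adjusted p = 0.174). Fibril-associated Col12a1 differed by 0.96 (0.230) and Col22a1 by 0.81 (0.233), and Col19a1 was not called (0.0899). For Col22a1 a dimmer probe gave 1.25 and passed when probes were tested singly (adjusted p = 0.0467). Transmembrane Col25a1 differed by 1.40 (0.213), Col13a1 by 0.34 (0.306) and Col17a1, a hemidesmosome component of epithelium, by -0.31 (0.708). The differences below 0 among the others were those of Col8a2, Col14a1, Col16a1, Col17a1 and Col20a1. Without normal 3, Col8a2 (-1.33) and Col20a1 (-1.13) were lower in tumor (adjusted p = 0.0196 and 0.0346). Col22a1 (1.23) and Col25a1 (1.99) were then higher (adjusted p = 0.0224 and 0.0361), and Col12a1 came to 0.49. Col19a1 was then called higher too (adjusted p = 0.0019). Its levels in normals 1, 2 and 4 (3.50, 3.26 and 4.24) all lay below the limit of the filter on dim probes. Its normal level is therefore only a bound, and no size is given.

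Beyond the rule, Col6a4, which the array lists under another name, was higher in tumor by 1.62 ± 0.31 (SE; limma adjusted p = 0.0215). Its call was lost without tumor 1, 2 or 3 or normal 2 or 4 (adjusted p from 0.0558 to 0.0656). Col26a1, likewise outside the rule, was not called (0.83, adjusted p = 0.295). Both were looked at after their values were seen and enter no count above.

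The spread of the collagens among normal samples was larger than among tumors in 36 of 38 genes, and over all genes in 16881 of 21633. The median SD was 1.17 in normal samples and 0.51 in tumors, against 0.46 and 0.27 over all genes. Normal 3 was the lowest normal sample in 22 collagens (57.9%, against 33.8% of all genes), and in these 22 it was the lowest of all 8 samples. It was the highest normal sample in 12 (31.6%, against 43.9% of all genes). Tumor 4 was the highest tumor in 23 collagens (60.5%, against 20.3% of all genes). Normal 2 was the highest normal sample in 24 of the 38, and over all genes in 4216 of 21633.

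**Figure D3:**
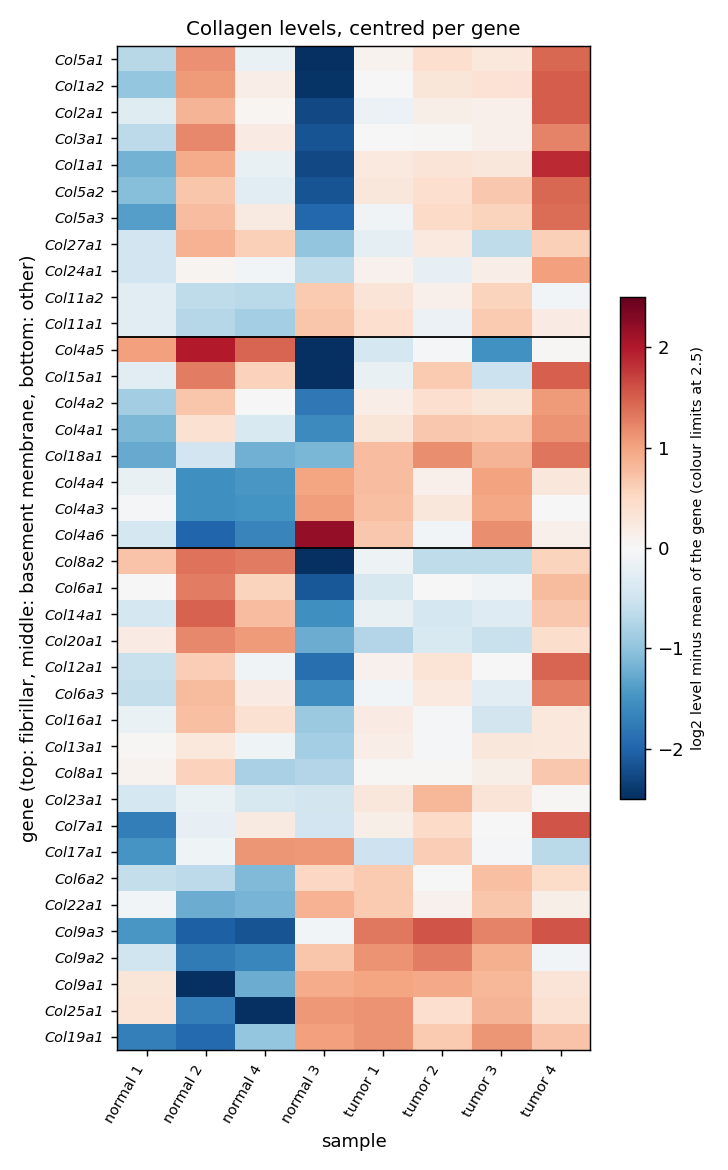
Heat map of the 38 collagen genes tested (rows, by class) in the 8 samples (columns), each cell being the log2 level minus the gene's mean over the 8 samples, with colours capped at 2.5 either way. Normal 3 is low in most fibrillar genes and high in Col4a3, Col4a4, Col4a6, Col9a1 and Col9a2.

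Markers of the cells that make collagen moved in the same samples. The 11 fibrillar collagens averaged 11.04, 11.14, 11.24 and 12.06 in tumors 1 to 4 and 10.25, 11.52, 9.49 and 10.87 in normal samples 1 to 4. The 10 fibroblast markers averaged 11.07, 11.22, 11.27 and 12.09 in tumors and 10.90, 11.94, 10.02 and 11.40 in normal samples. The 8 smooth muscle markers averaged 14.23, 13.84, 14.13 and 14.94 in tumors and 14.41, 15.69, 13.41 and 15.61 in normal samples. All 3 lists were highest in tumor 4 among tumors, highest in normal 2 and lowest in normal 3 among normal samples. Of these markers, 1 fibroblast gene of 10 was called higher (Thy1), and 0 of 8 smooth muscle genes were called, against 7.0% of all genes higher and 7.54% lower. The Thy1 call was lost when any sample but normal 2 or 3 was left out (adjusted p from 0.0775 to 0.0938). All 8 smooth muscle differences lay below 0 (median -0.35), whereas 10 of 11 fibrillar collagens lay above 0. Of the fibroblast markers, 8 of 10 lay above 0 (median 0.43). Without normal 3, 3 of 8 smooth muscle genes were called lower, against 19.8% of all genes. Endothelial markers, from the cells that line vessels, were higher in 3 of 8, and in 2 of 8 with the replicate block. Their mean too was highest in tumor 4 among tumors (11.24). It was lowest in normal 3 among normal samples (9.94), with normals 2 and 4 level at 10.46. Epithelial markers were also highest in tumor 4 and in normal 2 (16.83 and 17.22), but not lowest in normal 3. All fibroblast, smooth muscle and endothelial markers passed the filter on dim probes, and their part in the collagen levels was not tested.

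**Figure D4:**
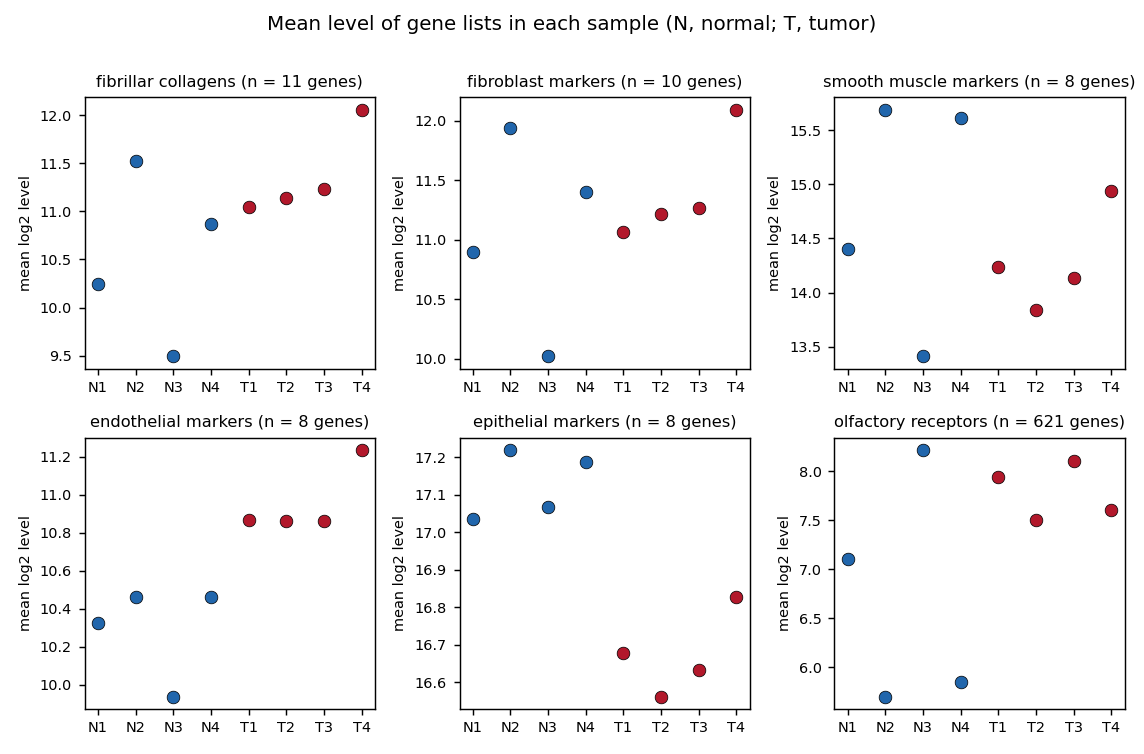
Mean log2 level of each list in each of the 4 tumors and 4 normal samples, for fibrillar collagens, fibroblast, smooth muscle, endothelial and epithelial markers and olfactory receptor genes (N, normal; T, tumor). Fibrillar collagens and fibroblast, smooth muscle and endothelial markers share a low normal 3 and a high tumor 4, and olfactory receptor genes are highest in normal 3.

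Probes of 1 collagen gene did not always give the same picture. Of 19 genes with more than 1 kept probe, 5 had differences of opposite sign (Col2a1, Col4a3, Col4a6, Col6a2 and Col27a1). Col4a6 ranged from -2.44 to 0.94 over its 3 probes, with no probe called. In 9 of the 19, normal 3 was the lowest normal sample by one probe and the highest by another. Col5a1 was such a case: its brighter probe read 11.22, 13.06, 9.41 and 11.75 in normal samples 1 to 4, and its dimmer probe 8.43, 7.17, 9.45 and 7.40. Both gave similar differences (1.11 and 1.13). The 2 kept probes of Col18a1 both ranked normal 2 highest, and both were called.

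Of 29 enzymes and chaperones that build and crosslink collagen tested out of 31 listed, 6 were higher in tumor and 0 lower, against 7.0% and 7.54% of all genes. Bmp1, the protease that trims procollagen, was higher by 1.51 ± 0.22 (SE; limma adjusted p = 0.0149), with tumors from 11.54 to 11.90 and normal samples from 9.76 to 10.71. P4ha2, a prolyl hydroxylase that stabilises the triple helix, was higher by 1.54 ± 0.25 (SE; adjusted p = 0.0174), and Crtap, part of the complex that hydroxylates proline at another position, by 0.73 ± 0.13 (SE; 0.0190). Loxl2, a crosslinking amine oxidase, was higher by 1.32 ± 0.22 (SE; 0.0178), but 0.0512 with the replicate block.

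All 4 of these genes, named for the lowest p of the list, had tumor and normal values that did not overlap. Over all genes, 11.9% were separated with tumor higher. Plod3, a lysyl hydroxylase, and Sparc, a collagen-binding chaperone, were the others called, and Sparc lost its call with the replicate block (adjusted p = 0.0696), which left 4 of the 6 (3.67% of all genes were higher in that fit). Single libraries ended these calls: tumor 3 or normal 4 for all 4 named genes (adjusted p from 0.053 to 0.0678), normal 1 for P4ha2, Loxl2 and Crtap (0.0511 to 0.0552), tumor 2 for P4ha2 and Crtap (0.0559 and 0.0545) and tumor 1 for Crtap (0.0504). Of the 8 fits with 1 sample left out, Sparc was called only in that without normal 3 (0.0562 to 0.122 in the others), and Plod3 lost its call without tumor 2 or 3 or normal 1, 2 or 4 (0.0549 to 0.0678). The median difference of the 29 genes was 0.76, and 0.43 without normal 3.

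Collagen-degrading proteases held the largest differences of these lists, also with Mmp8 set aside, those of Mmp13 and Mmp9. Of the 8 genes, 4 were called higher and 0 lower, against 7.0% and 7.54% of all genes. The 4 include Mmp8, which passed the filter on dim probes only through its tumors. Mmp9, a gelatinase, was 11.14, 12.29, 11.87 and 11.68 in tumors and 7.88, 8.63, 8.90 and 7.85 in normal samples. The groups were far apart, by 3.43 ± 0.33 (SE; limma adjusted p = 0.0086). Mmp14, a membrane-bound collagenase, was higher by 1.2 ± 0.21 (SE; 0.0183), with tumors from 15.81 to 16.46 and normal samples from 14.58 to 15.22.

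The collagenase Mmp13 was higher by 4.83 ± 0.94 (SE; limma adjusted p = 0.0218). The collagenase Mmp8, known from neutrophils, had 11.18, 10.85, 12.14 and 8.48 in tumors and 3.94, 5.12, 7.5 and 3.32 in normal samples, of which only normal 3 reached the detection limit of 5.59. It passed the filter through its tumors and was called higher (adjusted p = 0.0208), but its normal level is only a bound and no size is given. For both genes normal 3 was the highest normal sample (12.72 for Mmp13, against at most 9.44). Mmp8 was not well above background on the arrays traced to normals 1 and 2, and Mmp9 not on that of normal 1. The calls were lost without tumor 3 in all 4 (adjusted p from 0.0525 to 0.0723), and without tumor 2, normal 1 or normal 4 in all but Mmp9 (0.0534 to 0.067). Mmp8 lost its call also without tumor 1 (0.0577), and Mmp8 and Mmp13 without normal 2 (0.0559 and 0.0609).

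Of 9 collagen receptors tested out of 10 listed, 0 were higher and 1 was lower, against 7.0% and 7.54% of all genes. The gene called lower was the platelet receptor Gp6 (-1.59 ± 0.43, SE; limma adjusted p = 0.0467), with tumors at 7.12, 6.39, 6.72 and 7.63 and normal samples at 9.44, 8.60, 7.56 and 8.63. The groups overlapped at normal 3 and tumor 4. Its call was lost with the replicate block (0.0531), with no filter on dim probes (0.0614) and when any sample but normal 3 was left out (0.0538 to 0.127). The collagen-activated kinase Ddr1 differed by 0.41 (0.0792), the integrin chain Itgb1 by 0.39 (0.0826) and the inhibitory immune receptor Lair1 by 0.88 (0.199). Without normal 3, Ddr1 was called higher (0.43, adjusted p = 0.0416) and Lair1 came to 0.41, and under limma-trend Ddr1 and Itgb1 were called (adjusted p = 0.0266 and 0.0340).

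Small leucine-rich proteoglycans, which coat fibrils, gave 0 of 8 called (10 listed), against 7.0% higher and 7.54% lower of all genes. Their median difference was -0.09. Dcn (decorin) was 16.00, 16.33, 16.57 and 16.70 in tumors and 15.27, 16.67, 14.80 and 16.27 in normal samples, a difference of 0.65 ± 0.42 (SE; limma adjusted p = 0.264). Its normal samples had the order of the fibrillar collagens, with normal 2 highest and normal 3 lowest. Ogn, Aspn and Podn differed by -0.88, -0.70 and 0.79, with adjusted p from 0.311 to 0.432. Without normal 3, Ogn was called lower (-1.42, adjusted p = 0.0388), Dcn came to 0.33 and the median of the 8 genes to -0.48.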

How the data were processed

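The authors deposited scanner files with spot intensity per probe, which per the file headers Agilent Feature Extraction 9.5.1.1 had corrected for background and spatial trend on each array alone (the submitters' processing notes name 10.1.1.1). They also deposited a table with 1 column per sample, whose scale is not stated; against the matched scanner files it is log2, and every column has the median 8.51 and the 75th percentile 11.40, so the authors' deposited log2 values are quantile-normalised. Direction follows the column labels.

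The 41174 probes were named through RefSeq (GRCm38.p6; 24496 by accession, 6234 by symbol and 2386 by an older symbol), while 8058 stayed as filed. A probe was kept at or above 5.59 on at least 4 of 8 arrays. For each of the 4 matched columns a cut was taken at the 95th percentile of its background-flagged probes, and the limit is the median cut. The cuts were 7.70 for normal 1, 5.82 for normal 2, 4.50 for tumor 1 and 5.35 for tumor 2. Flag and limit put 79.1% of probes on the same side in normal 1, against 93.7% to 99.3% in the other matched columns. In normal 1 the limit lies well below the cut, so passing it there does not show signal above background. Well above background were 55.6% to 82.8% of probes per array, and the number of arrays limits the precision. The brightest kept probe stood for a gene, and probe levels are not compared between genes. limma 3.58.1 (R 4.3.3; lmFit, eBayes, 2-sided) was fitted to all 21633 genes, with Benjamini-Hochberg adjustment over all of them and a threshold of 0.05; it was tested on simulated data. Each error is limma's SE. That the samples are independent rests on the series' design text alone.

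The members and all lists were chosen with earlier results of these data known. Named were all called collagens, the 3 brightest uncalled ones per class, and 4 genes with the lowest p of each other list. Samples of equal replicate number deviated together from their group means (correlations 0.24, 0.36, 0.53 and 0.36), and the number was taken as a block in an alternative fit. Samples of unequal number were not compared in this way, so these correlations do not establish a pairing. The titles give the numbers. Pairs 1 and 2 were each on 1 slide, by the matched files.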

Additional observations from a re-analysis of the deposited data

Results flagged for a closer look

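In 3 of 56 groups of 4 values examined, 1 sample lay far from the others, and chance alone gives about 1 in 20 groups. Normal 2 had a Col18a1 level of 12.65, against 11.88 to 11.99 in the other normal samples. Tumor 4 had a Col3a1 level of 16.33, against 15.08 to 15.22 in the other tumors. Tumor 4 also had a Col1a1 level of 16.57, against 14.94 to 15.02. The 2 fibrillar values come from the same sample, in which fibroblast and smooth muscle markers were highest among tumors (12.09 and 14.94), and their part was not tested.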

How the results depend on the processing

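Against 3 collagens higher and 0 lower, leaving out 1 sample gave 0 to 15 higher and 0 to 3 lower, the 15 and the 3 being without normal 3, while 21 to 11136 of all 21633 genes were called, against 3147 with all samples. The mean of a gene's kept probes gave 6 higher (2728 of all genes called), adding Col5a1, Col5a3 and Col6a3. Scanner values as filed gave 0 higher and 0 lower in each form (75th percentile, slide as a block, and normexp with quantile normalisation); the cause was not tested. The replicate block gave 2 higher and 0 lower, ended the calls of Col23a1, Loxl2, Sparc and Gp6 and changed no other call of a gene named. No filter on dim probes, a limit met on all arrays, 1 test per probe, centring and limma-trend kept both counts within 1.5 times. Among genes named, Col23a1 lost its call without the filter and under limma-trend, Gp6 lost it without the filter, and Col4a1, Ddr1 and Itgb1 were called under limma-trend.

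Scanner values as filed ended every call of a gene named by the rule. In the 75th percentile form Col18a1 came to 0.065, Col9a3 to 1.54, Col23a1 to 0.36, Bmp1 to 0.29, Mmp9 to 0.69, Mmp13 to 0.88 and Gp6 to -1.27. They turned 14 differences below 0. The 75th percentile and slide-block forms gave the same values, listed first, and normexp with quantile normalisation the second: Col3a1 -0.83 and -0.88, Col1a2 -0.46 and -0.48, Col1a1 -0.56 and -0.58, Col4a1 -0.27 and -0.27, Col4a2 -0.22 and -0.20, Col6a3 -0.30 and -0.29, Col8a1 -1.07 and -1.04, P4ha2 -0.25 and -0.23, Loxl2 -0.24 and -0.25, Crtap -0.27 and -0.24, Mmp14 -0.19 and -0.20, Ddr1 -0.17 and -0.18, Itgb1 -0.046 and -0.030, and Dcn -0.21 and -0.25. Col16a1, at -0.02 with all samples of the value table, came to -0.86 and -0.84 in these forms. In the value table it turned above 0 without normal 2 (0.23), tumor 3 (0.13) or normal 4 (0.11), within a range of -0.33 to 0.23 over the samples left out. Centring left the median difference over all genes at 0.15 and turned no named difference. Signal limits the dim collagens, since 9 of 38 were not well above background on the array traced to normal 1 and 4 on that of normal 2.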
